A study of Homo sapiens with 6 samples.

Results

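The genes described here encode the heat shock proteins and the J-domain chaperones of human cells. They were taken as every protein-coding gene of the deposited expression table whose symbol began with HSP90, or with HSPA, HSPB, HSPD, HSPE, HSPH, DNAJA, DNAJB or DNAJC followed by a digit. This gave 76 of the 58302 genes in the table, and the rule itself reads names only, although it was set with earlier results of these data known. The RNA was from MDA-MB-231-DR, a line selected for doxorubicin resistance out of MDA-MB-231, which is a triple-negative breast tumor line, and 3 control libraries were compared with 3 libraries from cells given cyperotundone (CYT), a constituent of the sedge Cyperus rotundus. According to the methods, resistant cells were maintained in medium with a low dose of doxorubicin, a condition that both groups would share. The dose and time of CYT for these libraries are not given in the sources used here, and nothing in the labels says whether the 3 libraries of a group came from separate cultures. P-values therefore measure the spread between these libraries, which may be technical.

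HSP70 proteins (the HSPA genes) bind exposed hydrophobic stretches of unfolded proteins in a cycle driven by ATP, J-domain proteins (the DNAJ genes) bring them clients and stimulate their ATPase, and HSP90 proteins complete the folding of a narrower set of clients such as kinases and steroid receptors. Small heat shock proteins (HSPB) hold unfolded proteins without ATP, and the mitochondrial chaperonin HSPD1 with its lid HSPE1 encloses them in a chamber. The cytosolic inducible members are switched on by heat shock factor 1 through heat shock elements in their promoters, whereas those of the endoplasmic reticulum (ER) are induced by the unfolded protein response, and tumor cells commonly carry high levels of many of them.

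Libraries held 13056270 to 17770102 counts, and the members took 0.937%, 1.05% and 1.08% of them in control and 0.719%, 1.01% and 0.697% in CYT libraries. Libraries are named by group and number, control 1 to 3 and CYT 1 to 3. CYT 2 stood apart, since its log2 CPM correlated at 0.904 and 0.905 with the other CYT libraries and these correlated at 0.970 with each other. It held the highest value of the 6 libraries for 21 of the 67 tested members and the lowest for 13, against 27.3% and 27.5% of all tested genes. Values without it are given beside many of the results it moves. Genes that mark the cell line, VIM and CD44, were present at 911 to 2742 and 111 to 149.5 CPM, the counts of a gene per count total of the library scaled by TMM factors. VIM was not stable between groups, with a log2 fold change in CYT of -1.30 (edgeR adjusted p = 0.00535). ACTB, also checked as present, was lower too (-1.86, edgeR adjusted p = 0.00523). CD44 and KRT18, the others of this check, did not pass an adjusted p of 0.05. The hormone receptor genes ESR1 and PGR and the leukocyte gene PTPRC stayed at or under 0.494 CPM, while ERBB2, which encodes the receptor HER2, was at 16.8 to 82.3 CPM.

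In control cells, the member with the highest level per length was HSP90AB1, the constitutive cytosolic HSP90, at 691 ± 97.8 (SD, n = 3) CPM per kb of exon in control and 502 ± 52.2 in CYT libraries. HSPB1 (HSP27) followed at 425 ± 146 (SD, n = 3) and 239 ± 136, and HSPA8, the constitutive cytosolic HSP70, at 365 ± 71.7 (SD, n = 3) and 170.4 ± 34.3 CPM per kb. HSP90AA1, HSPA5 and DNAJA1 came next by the mean, with 131, 128 and 102 CPM per kb, and the SD of HSP90AA1 (23.0) exceeded its distance from HSPA5. HSPA1A stood at 173 and 128 CPM per kb in control 1 and control 3 and at 0.150 in control 2, so its place in this order rests on that library. These levels used exonic lengths of GENCODE 29, since the FPKM values of the table imply other lengths. For 44 of 64 members with at least 50 counts in a library, the implied length was over 1.2 times the exonic length. For HSPA8 it was 14123 bp against 4849 bp of exon in a locus of 5742 bp. The implied length was the same in every library, so comparisons of a gene between groups are not touched by it.

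CYT cells differed from control cells in 19 of the 67 members that could be tested, of which 9 were higher and 10 lower. Called means an adjusted p under 0.05 by the quasi-likelihood F test of edgeR, adjusted after Benjamini and Hochberg over all 15572 genes that could be tested. The 28.4% of members called stood beside 28.6% of all tested genes. Members higher in CYT made up 13.4% against 15.7% of all tested genes, and members lower in CYT 14.9% against 12.9%. The median log2 fold change of the tested members was -0.09, beside 0.0064 over all tested genes. In 28 members (41.8%) the values of the groups did not overlap, 13 with CYT above and 15 with CYT below, and this held for 46.1% of all tested genes. With the replicate number as a block, 29 members were called (16 higher and 13 lower), all of the 19 among them, against 39.9% of all tested genes. Without CYT 2 24 members were called, 17 of them among the 19, and DNAJC14 and DNAJB11 were the calls that were lost. That made 35.8% of the members, beside 35.5% of all tested genes. The share of chaperone genes called was thus near that of all genes, and the members moved in both directions. DESeq2 called 12 members higher and 11 lower, beside 2928 higher and 2354 lower of 15565 genes. Counts at an unadjusted p are given below without a share of all genes, which was not worked out. In bulk libraries, fewer cells that express a gene and less of its RNA per cell cannot be told apart.

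**Figure D1:**
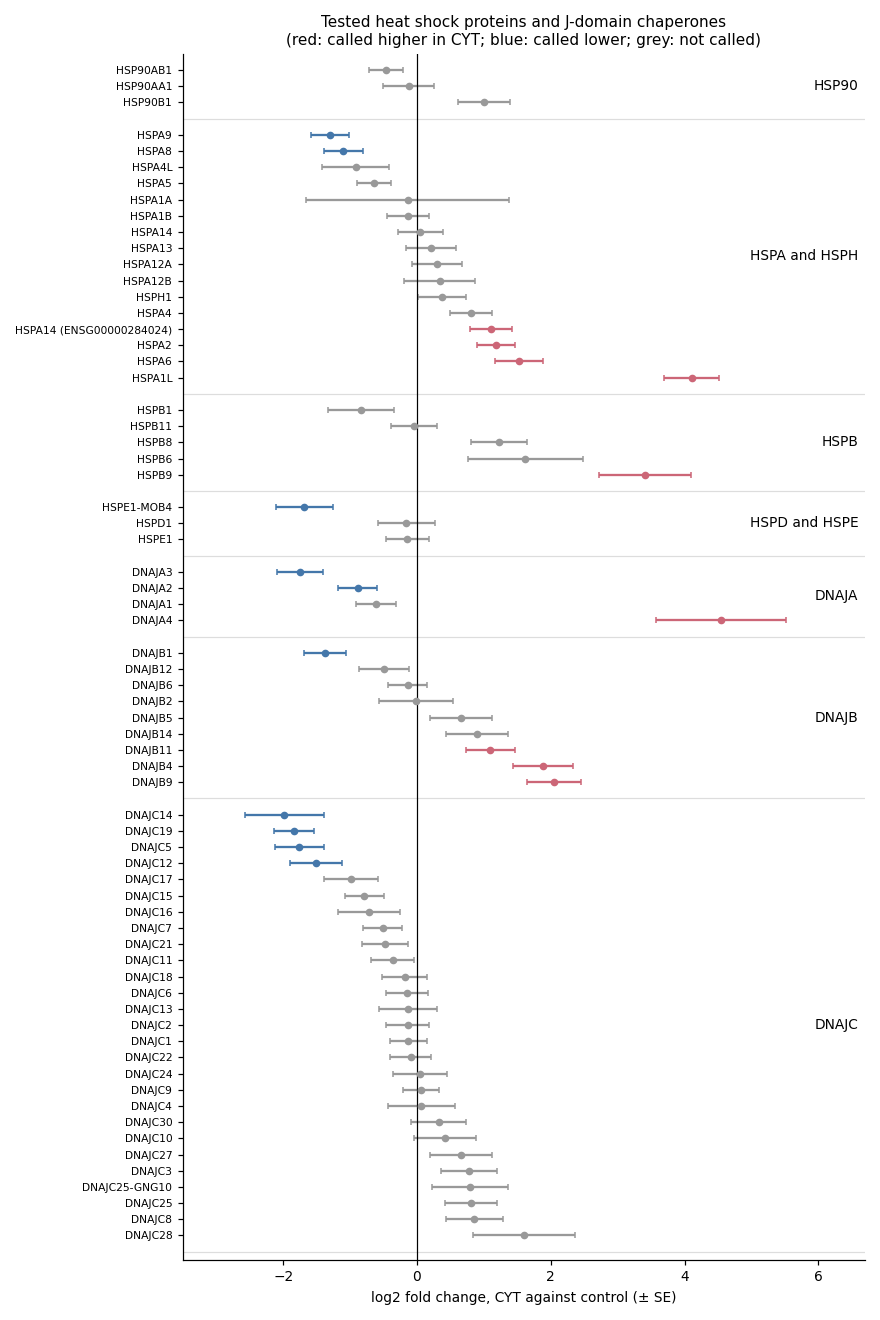
Log2 fold change of CYT against control with its standard error for the 67 tested members, by family. Red points mark the 9 members called higher in CYT, blue points the 10 called lower and grey points the others, and calls in both directions stand in the HSPA and DNAJB families, and in the DNAJA family through DNAJA4, which was tested only through its CYT values.

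The remaining 9 members were too low to test and had at most 11 counts in any library. They were HSPB2, HSPB2-C11orf52, HSPB3, HSPB7, DNAJB7, DNAJB8, DNAJB13, DNAJC5B and DNAJC5G, and 2 of them were at 0 in every library. DNAJB13, a J protein of sperm flagella and cilia, had 0, 0 and 3 counts in control and 11, 8 and 7 in CYT libraries, a ratio per library total of 10.5 with an exact 95% interval from 3.22 to 54.2 that covers counting error only.

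In the ER, the J proteins DNAJB9 and DNAJB11 rose in CYT cells, while HSPA5 and HSP90B1, the main folding chaperones of its lumen, lay on opposite sides of control and were not called. HSPA5 (BiP), the HSP70 of the ER lumen, was at 482, 516 and 499 CPM in control and 322, 359 and 280.5 CPM in CYT libraries. The CYT values lay below the control values without overlap, but the log2 fold change of -0.64 ± 0.26 (SE) was not called (edgeR adjusted p = 0.0913). Over the 15 alternatives its adjusted p ran from 0.0454 to 0.231, and it was called lower without CYT 2 (adjusted p = 0.0457) and without both libraries numbered 2 (adjusted p = 0.0454).

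HSP90B1 (GRP94), the HSP90 of the ER, was at 253, 312 and 316 CPM in control and 339, 956 and 465 CPM in CYT libraries. Here the CYT values lay above the control values, the opposite side from HSPA5, and CYT 2 was far above the other CYT libraries. The log2 fold change was 0.998 ± 0.39 (SE) and was not called (edgeR adjusted p = 0.0831). Without CYT 2 it was 0.45 (adjusted p = 0.205). With the replicate block HSP90B1 was called higher (adjusted p = 0.0475), within a range of 0.0415 to 0.211 over the alternatives.

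DNAJB9 (ERdj4), which binds BiP and the stress sensor IRE1, was at 10.2, 22.3 and 13.9 CPM in control and 46.1, 92.8 and 53.2 CPM in CYT libraries, and every CYT value exceeded every control value. Its log2 fold change was 2.05 ± 0.41 (SE) (edgeR adjusted p = 0.00577), and the call was kept under all 15 alternatives. The DNAJB9 locus overlaps PNPLA8 and THAP5 on the opposite strand (3778 and 1107 counts in all libraries), and the sources do not say whether reads were counted by strand.

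DNAJB11 (ERdj3), a secreted and lumenal partner of BiP, was at 48.9, 37.4 and 42.5 CPM in control and 59.5, 139.8 and 75.8 CPM in CYT libraries. Its log2 fold change of 1.09 ± 0.37 (SE) only just passed the test (edgeR adjusted p = 0.0495). The call was kept under 6 of 15 alternatives. It was lost when CYT 2 (log2 fold change 0.66, adjusted p = 0.0615), CYT 3 or any of the 3 control libraries was left out, with adjusted p of up to 0.142.

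Of the 13 ER members, all tested, edgeR called 2 higher and 0 lower (15.4%, beside 28.6% of all tested genes), and their median log2 fold change was 0.42. Without CYT 2 the median was -0.10, and 1 was called higher (DNAJB9) and 1 lower (HSPA5), which made 15.4% beside 35.5% of all tested genes in that fit. DNAJC14, an ER membrane protein that is not on this list, was called lower and is described with the DNAJC family. Of the 13 on the list, 3 were higher and 1 lower at an unadjusted p under 0.05. DESeq2 called 3 higher and 0 lower, beside 2928 higher and 2354 lower of 15565 genes. With the replicate block 5 were called higher and 0 lower, beside 39.9% of all tested genes called. The further ones were HSP90B1, DNAJB14 and DNAJC25. The log2 fold change of DNAJB14 was 0.90 ± 0.46 (SE), and 0.27 without CYT 2. Members not called included DNAJC3 (p58IPK), an inhibitor of the kinase PERK, at 0.78 ± 0.42 (SE), the disulfide reductase DNAJC10 at 0.42 ± 0.47 (SE), and HSPA13, a microsomal HSP70, at 0.21 ± 0.38 (SE). For DNAJC3 and DNAJC10 CYT 2 was the highest of the 6, at 78.4 and 149.9 CPM. Without that library the log2 fold changes of DNAJC3, DNAJC10 and HSPA13 were 0.18, -0.27 and -0.19. The exchange factors that reload BiP were not called. HYOU1 (GRP170) was at 300.3, 187 and 259 CPM in control and 349, 274 and 496 CPM in CYT libraries, a log2 fold change of 0.58 ± 0.32 (SE) (edgeR adjusted p = 0.203), and SIL1 at -1.01 ± 0.36 (SE) (adjusted p = 0.0598). SIL1 was called lower with the replicate block (adjusted p = 0.0113) and without CYT 2 (log2 fold change -0.72, adjusted p = 0.0470). Its adjusted p ran from 0.0113 to 0.160 over the alternatives. Of a closely related pair of ER proteins, SDF2 rose by 1.01 ± 0.28 (SE) and SDF2L1, the stress-inducible relative, changed by -1.16 ± 0.37 (SE) on the log2 scale (edgeR adjusted p = 0.0235 and 0.0410). These calls were kept under 10 and 7 of the 15 alternatives.

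The promoters of HSPA5 and HSP90B1 are shown because these neighbours in function lay on opposite sides of control. They are the only members with an exact match to the ER stress element in the windows searched. This motif was searched as CCAAT, 9 further bases and CCACG on either strand, in the 250 bases before each RefSeq gene start (GRCh38.p14). Of 75 member symbols, 66 matched, with 85 windows in all. The motif was present in 2 of the 85 member windows (2.35%) and in 26 of 35116 windows of all genes (0.074%). Capitals mark the matches. Variants of the motif were not searched, and a match was not tested as a binding site. The HSPA5 window lies at chr9:125241344-125241593 on the minus strand, and the HSP90B1 window, which holds 2 matches, at chr12:103930160-103930409 on the plus strand.
HSPA5: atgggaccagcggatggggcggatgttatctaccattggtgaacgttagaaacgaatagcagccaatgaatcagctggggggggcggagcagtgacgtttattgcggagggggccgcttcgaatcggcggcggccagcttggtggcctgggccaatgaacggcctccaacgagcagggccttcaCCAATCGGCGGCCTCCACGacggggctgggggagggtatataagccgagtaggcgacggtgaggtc
HSP90B1: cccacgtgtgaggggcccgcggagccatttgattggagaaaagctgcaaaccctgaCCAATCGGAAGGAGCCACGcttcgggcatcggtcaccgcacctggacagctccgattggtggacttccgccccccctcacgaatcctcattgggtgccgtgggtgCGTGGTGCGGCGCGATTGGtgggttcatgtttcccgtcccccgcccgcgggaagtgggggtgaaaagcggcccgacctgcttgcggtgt

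**Figure D2:**
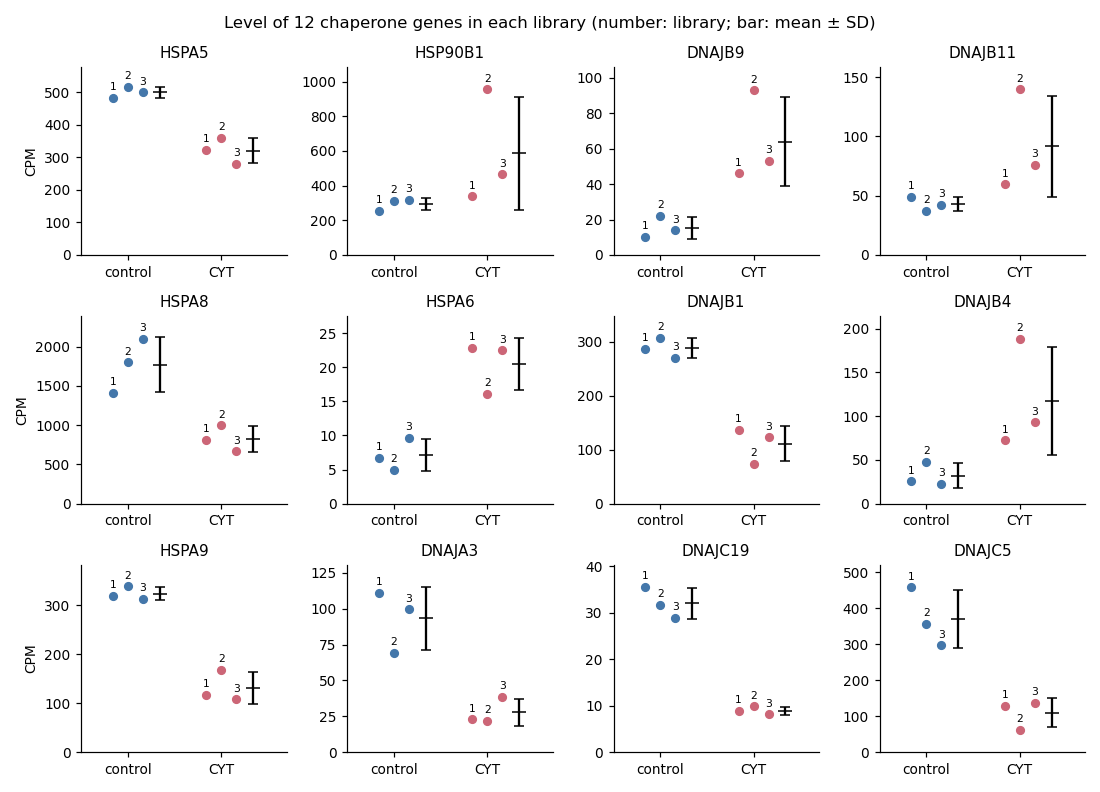
CPM of 12 members in each library, with the library number above each point and the mean ± SD of the 3 libraries of a group in black. The axes start at 0. HSPA5, HSPA8, DNAJB1, HSPA9, DNAJA3, DNAJC19 and DNAJC5 lie lower in CYT without overlap, the other 5 lie higher, and CYT 2 is the highest for HSP90B1, DNAJB9, DNAJB11 and DNAJB4.

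Among the cytosolic HSP70 genes, the abundant constitutive form fell and several minor forms rose. HSPA8 (HSC70; hg38 chr11:123057489-123063230) was at 1409.6, 1801 and 2103 CPM in control and 812, 999.6 and 668 CPM in CYT libraries, so that each CYT library was below each control library. The log2 fold change was -1.10 ± 0.29 (SE) (edgeR adjusted p = 0.0190), and the call was kept under 12 of 15 alternatives and lost without control 3, CYT 1 or CYT 3 (adjusted p of 0.0659 to 0.0812).

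HSPA6, an HSP70 of human cells that is nearly silent until heat stress, was at 6.76, 4.95 and 9.63 CPM in control and 22.9, 16.2 and 22.5 CPM in CYT libraries. It rose by 1.53 ± 0.36 (SE) on the log2 scale (edgeR adjusted p = 0.0121), without overlap between the groups. Without the first control library its adjusted p was 0.0513. HSPA2, the form of testis that is also made in many tumors, rose from 30.1 ± 4.12 to 68.2 ± 6.12 CPM (log2 fold change 1.18 ± 0.28 (SE), edgeR adjusted p = 0.0127). That call was lost without control 3 or CYT 1 (adjusted p of 0.0516 to 0.0605).

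HSPA1L, a relative of HSPA1A best known from spermatids, was at 0.434, 0.532 and 0.719 CPM in control and 10.6, 9.75 and 8.90 CPM in CYT libraries. Control libraries held 7, 10 and 10 counts of it and CYT libraries 150, 137 and 112. The log2 fold change of 4.11 ± 0.41 (SE) (edgeR adjusted p = 4.69e-04) was kept under all 15 alternatives. HSPA1L could not pass the count filter on its control libraries alone, so its call lends no support to the count of higher members. HSPA1L lies on chromosome 6 on the strand opposite to HSPA1A, and their annotated starts are 399 bp apart.

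HSPA14 (HSP70L1), which joins the ribosome-associated complex, has 2 rows in the table. The row of the longer locus, at chr10:14838164-14871741, had a log2 fold change of 0.05 ± 0.34 (SE) (edgeR adjusted p = 0.932). The row ENSG00000284024, at chr10:14838166-14844727, was called higher at 1.10 ± 0.31 (SE) (adjusted p = 0.0267). The shorter locus lies inside the longer one on the same strand, so the split of reads between the rows is uncertain. That call was kept under 11 of 15 alternatives and lost with no filter on low counts and without control 1, control 2 or CYT 1 (adjusted p of 0.0533 to 0.109).

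HSPA1A and HSPA1B, the major stress-inducible HSP70 genes, encode almost the same protein from neighbouring loci on chromosome 6, at chr6:31815464-31817946 and chr6:31827735-31830255 (hg38). HSPA1A had 6940, 7 and 4430 raw counts in control libraries 1 to 3 and 4638, 108 and 4339 in CYT libraries 1 to 3. HSPA1B had 2735, 2181 and 1770 counts in control and 2051, 1216 and 1812 in CYT libraries. HSPA1A was thus nearly absent from both libraries numbered 2, whatever the treatment, whereas HSPA1B was present in all 6.

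HSPA1A made up 71.7%, 71.5%, 69.3% and 70.5% of the counts of the pair in the libraries numbered 1 and 3, and 0.320% and 8.16% in the libraries numbered 2. Of the 58302 rows of the table, 3 were over 10-fold lower in both libraries numbered 2 than in each of the other 4 libraries, namely HSPA1A, TCEAL1 and AC105052.3, and 0 were over 10-fold higher. For the other 8 pairs of a control and a CYT library the rows that were low in both numbered 0 to 2 and those high in both 0 to 1, and control 3 with CYT 1 also came to 3 rows in all. The transcripts of HSPA1A and HSPA1B (2483 and 2521 bases) matched at 96.7% of aligned bases, and 67.1% of the 150-base stretches of HSPA1A also occur in HSPA1B. How reads that fit both genes were counted is not given in the sources used here, and its part in these values was not tested.

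Neither gene was called between the groups. The log2 fold change of HSPA1A was -0.14 ± 1.52 (SE) (edgeR adjusted p = 0.956), with a standard error larger than any other member's, and without both libraries numbered 2 it was -0.12 ± 0.23 (adjusted p = 0.714). With the replicate block it was 0.82 (adjusted p = 0.374), and its sign was positive under upper-quartile normalization and without CYT 2 (0.45) too. HSPA1B had a log2 fold change of -0.14 ± 0.32 (SE) (adjusted p = 0.777). Its sign also turned under upper-quartile normalization.

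**Figure D3:**
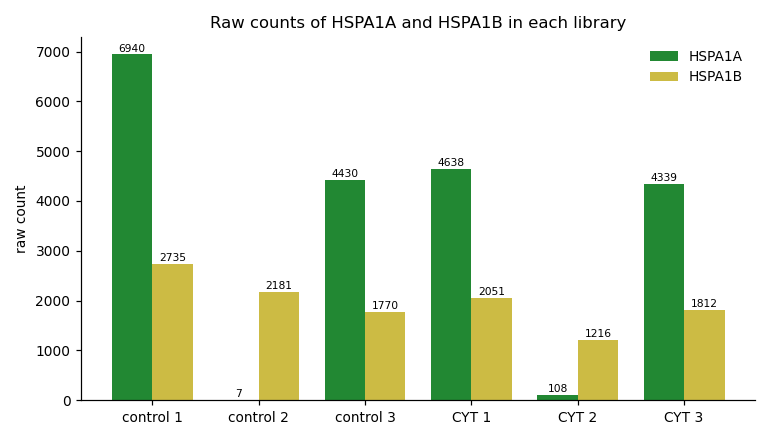
Raw counts of HSPA1A (green) and HSPA1B (yellow) in each of the 6 libraries, 1 bar a library. HSPA1A falls to 7 and 108 counts in the libraries numbered 2, where HSPA1B has 2181 and 1216 counts.

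The promoters below show how alike the HSPA1A and HSPA1B starts are, and set HSPA6, which rose, beside HSPA8 and DNAJB1, which fell. Capitals mark heat shock elements, searched in the 250 bases before each RefSeq start as GAANNTTC or TTCNNGAA, each of which is its own reverse complement. A 3-unit element is a run in which these overlap, and is seen as a longer run of capitals. The 2-unit form was present in 20 of 85 member windows (23.5%) against 11.6% of 35116 windows, and the 3-unit form in 6 member windows (7.06%) against 0.441%. The HSPA1A and HSPA1B windows matched at 94.4% of 249 aligned bases, and the HSPA1A window shares 241 bases with that of HSPA1L.
HSPA1A, chr6:31815293-31815542, plus strand: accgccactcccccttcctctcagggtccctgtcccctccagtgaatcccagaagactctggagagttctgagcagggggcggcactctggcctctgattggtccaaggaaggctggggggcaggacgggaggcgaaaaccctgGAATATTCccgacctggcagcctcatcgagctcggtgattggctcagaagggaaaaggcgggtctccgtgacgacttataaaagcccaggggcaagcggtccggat
HSPA1B, chr6:31827488-31827737, plus strand: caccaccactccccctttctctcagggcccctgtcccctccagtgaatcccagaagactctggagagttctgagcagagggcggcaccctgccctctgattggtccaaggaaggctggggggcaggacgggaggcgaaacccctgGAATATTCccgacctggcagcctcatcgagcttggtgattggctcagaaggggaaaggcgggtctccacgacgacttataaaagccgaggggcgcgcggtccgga
HSPA6, chr1:161524290-161524539, plus strand: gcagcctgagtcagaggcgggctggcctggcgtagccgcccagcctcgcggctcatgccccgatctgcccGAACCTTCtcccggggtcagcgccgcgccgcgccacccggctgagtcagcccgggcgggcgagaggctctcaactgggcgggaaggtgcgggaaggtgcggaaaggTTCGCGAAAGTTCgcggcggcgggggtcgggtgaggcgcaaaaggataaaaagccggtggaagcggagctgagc
HSPA8, chr11:123062137-123062386, minus strand: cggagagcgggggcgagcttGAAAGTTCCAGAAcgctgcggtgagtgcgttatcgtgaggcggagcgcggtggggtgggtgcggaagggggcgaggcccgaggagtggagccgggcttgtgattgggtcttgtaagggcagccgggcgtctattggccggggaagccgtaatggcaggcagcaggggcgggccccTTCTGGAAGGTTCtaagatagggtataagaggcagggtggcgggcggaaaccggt
DNAJB1, chr19:14518398-14518647, minus strand: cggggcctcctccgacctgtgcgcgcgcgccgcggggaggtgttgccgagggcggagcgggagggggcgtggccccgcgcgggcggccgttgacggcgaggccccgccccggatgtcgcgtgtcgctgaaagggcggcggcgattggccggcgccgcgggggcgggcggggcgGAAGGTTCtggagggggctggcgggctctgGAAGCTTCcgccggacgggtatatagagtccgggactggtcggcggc

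The members with a 3-unit element did not move one way. HSPA6 rose, HSPA8 fell, and DNAJB6, HSP90AA1, HSP90AB1 and HSPD1 were not called, with log2 fold changes of -0.14, -0.13, -0.46 and -0.16, of which those of DNAJB6 and HSP90AA1 turned sign under upper-quartile normalization. Of the 18 tested members with at least a 2-unit element, 4 were called higher and 2 lower (33.3%, beside 28.6% of all tested genes), and their median log2 fold change was -0.14. Leaving out DNAJA4, which passed the filter through its CYT values alone, 5 of 17 were called (29.4%). HSPA1L is still among these, although it too needed its CYT libraries to pass the filter. Its window shares 241 bases with that of HSPA1A, so the same element is counted for both genes. A match is a run of letters and was not tested as a binding site.

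DNAJB1 (HSP40), the main stress-inducible J protein of the cytosol and the partner of HSPA1A and HSPA8, was at 287, 307 and 270.0 CPM in control and 137, 74.0 and 123 CPM in CYT libraries. All 3 CYT values were under every control value, and the log2 fold change was -1.37 ± 0.31 (SE) (edgeR adjusted p = 0.0103). The call was kept under all 15 alternatives, and without both libraries numbered 2 the change was -1.06 (adjusted p = 0.00686). DNAJB1 has 3 RefSeq starts, of which the printed one alone has heat shock elements. Its locus overlaps TECR on the opposite strand (16574 counts).

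DNAJB4 (HLJ1), a close relative of DNAJB1, went the other way. It was at 25.4, 48.0 and 22.2 CPM in control and 72.2, 188 and 92.8 CPM in CYT libraries, with the second library the highest of its group in both groups. Its log2 fold change was 1.88 ± 0.45 (SE) (edgeR adjusted p = 0.0133), and 1.37 without CYT 2 (adjusted p = 0.0158). The call was lost without control 1 or control 3 (adjusted p of 0.0583 to 0.0628).

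The DNAJA proteins, which carry a zinc-binding domain and serve HSPA8 in folding and import, had 4 tested members, of which 2 were called lower and 1 higher, beside 28.6% of all tested genes called. The higher one, DNAJA4, was tested only through its CYT values, and DNAJA3 is described with the mitochondrial members. DNAJA2 was at 164, 218 and 197 CPM in control and 115, 117 and 81.1 CPM in CYT libraries, a log2 fold change of -0.89 ± 0.29 (SE) (edgeR adjusted p = 0.0447). The groups did not overlap, but the call was kept under 4 of 15 alternatives and was lost when any library other than CYT 2 was left out, with adjusted p of up to 0.150. DNAJA1, the most abundant DNAJA gene, was at 234, 299.9 and 299 CPM in control and 167, 237 and 139 CPM in CYT libraries, where CYT 2 lay between control values (log2 fold change -0.62 ± 0.30 (SE), edgeR adjusted p = 0.153). Without that library the change was -0.85 (adjusted p = 0.0314).

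DNAJA4 had 0, 0 and 3 counts in control and 32, 13 and 23 in CYT libraries. The ratio of its summed counts per library total was 27.5, with an exact 95% interval of 9.01 to 136.5 that covers counting error only, and the edgeR adjusted p was 0.00768. No control library reached the minimum of the count filter, so DNAJA4 was tested only through its CYT values, and the same holds for HSPB9. A member that enters in this way had to differ, so these 2 of the 9 higher calls lend no support to the count. HSPA1L, with 7, 10 and 10 control counts, also could not pass the filter without its CYT libraries, and its call lends none either. DNAJA4 overlaps WDR61 on the opposite strand (6409 counts). It was the member with the lowest level among those called, at a mean of 1.67 ± 0.680 CPM in CYT libraries.

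Of the 3 HSP90 genes edgeR called 0, beside 28.6% of all tested genes, and both DESeq2 and the unadjusted p (under 0.05) picked 1 as higher, HSP90B1. HSP90AB1 was at 2393, 1852 and 1934 CPM in control and 1339.6, 1651 and 1498 CPM in CYT libraries, and CYT values were below control values (log2 fold change -0.46 ± 0.26 (SE), edgeR adjusted p = 0.206). The inducible cytosolic form HSP90AA1 was at 552, 727 and 783 CPM in control and 375, 991 and 523 CPM in CYT libraries. CYT 2 was the highest and CYT 1 the lowest of all 6, so that the groups overlapped (log2 fold change -0.13 ± 0.38 (SE), adjusted p = 0.830). Without CYT 2 this change was -0.61 (adjusted p = 0.128), and its sign turned under upper-quartile normalization.

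The HSP110 proteins act as exchange factors for cytosolic HSP70. HSPA4 (APG-2) was at 178, 199 and 186 CPM in control and 262, 461 and 259.8 CPM in CYT libraries, with CYT above control throughout. Its log2 fold change was 0.80 ± 0.31 (SE) (edgeR adjusted p = 0.0807), called higher with the replicate block (adjusted p = 0.0444) and not without CYT 2 (adjusted p = 0.132, range 0.0443 to 0.199 over alternatives). HSPH1 (HSP105) had a log2 fold change of 0.37 ± 0.36 (SE) and HSPA4L of -0.92 ± 0.51 (SE), and neither was called. Without CYT 2 the value of HSPH1 was -0.08, and HSPA4L was called lower at -1.64 (adjusted p = 0.0126), in a range of 0.0126 to 0.442 over the alternatives.

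A list of cytosolic members known as targets of heat shock factor 1 held 12 genes, among them HSPA8 and HSP90AB1, which are also made without stress. All were tested, and 2 were called higher (HSPA6 and DNAJB4) and 2 lower (HSPA8 and DNAJB1), with a median log2 fold change of -0.30. The 33.3% called stood beside 28.6% of all tested genes. Without CYT 2 the median was -0.47, and 2 were called higher and 4 lower (50%, beside 35.5% of all tested genes in that fit). With the replicate block, which called 39.9% of all tested genes, 2 were called higher and 4 lower, HSPB1 and HSPA4L (adjusted p = 0.0368) being added. Among the small heat shock proteins, HSPB1 was at 715, 448 and 923 CPM in control and 556, 137 and 477 CPM in CYT libraries. The groups overlapped, since CYT 2 was the lowest and its control counterpart lay under the other CYT libraries (log2 fold change -0.83 ± 0.49 (SE), edgeR adjusted p = 0.231, with the replicate block 0.0284). Without CYT 2 the change was -0.42 (adjusted p = 0.346).

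HSPB8 (HSP22), which acts with BAG3 in selective autophagy, was at 6.51, 3.89 and 3.02 CPM in control and 11.1, 6.83 and 13.6 CPM in CYT libraries (log2 fold change 1.23 ± 0.42 (SE), edgeR adjusted p = 0.0533). It was called under 10 of the 15 alternatives, among them the replicate block (adjusted p = 0.0261), in a range of 0.0148 to 0.182. HSPB9, a testis-type member, was called higher at 8, 3 and 1 counts in control and 22, 40 and 46 in CYT libraries (log2 fold change 3.41 ± 0.69 (SE), adjusted p = 0.00615). It passed the filter through its CYT values alone, and without control 1 the fitted change was 4.38. HSPB11, a subunit of the transport machinery of cilia, had a log2 fold change of -0.04 ± 0.35 (SE), whose sign turned under upper-quartile normalization.

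Among genes of the mitochondrial HSP70 system, HSPA9, DNAJA3 and DNAJC19 fell. HSPA9 (mortalin), which pulls proteins into the matrix and folds them there, was at 319, 338 and 313 CPM in control and 117, 168 and 107 CPM in CYT libraries. The control libraries lay close together, well above all 3 CYT libraries. It fell by 1.30 ± 0.29 (SE) on the log2 scale (edgeR adjusted p = 0.00906), kept under all 15 alternatives.

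DNAJA3 (TID1), the J protein that serves HSPA9 in folding, was at 111, 69.0 and 99.4 CPM in control and 22.9, 21.7 and 38.6 CPM in CYT libraries, without overlap (log2 fold change -1.75 ± 0.35 (SE), edgeR adjusted p = 0.00580). DNAJC19, a J protein of the inner-membrane import motor, was at 35.6, 31.6 and 28.9 CPM in control and 8.89, 9.82 and 8.11 CPM in CYT libraries, with little spread within either group. Its log2 fold change was -1.84 ± 0.30 (SE) (adjusted p = 0.00235), and both calls were kept under all 15 alternatives. The processed pseudogene DNAJC19P9, whose reads may be hard to tell from those of DNAJC19, was also called lower, with 86, 182 and 89 counts in control and 10, 44 and 19 in CYT libraries.

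DNAJC15, another import-motor J protein, was at 109.5, 141 and 110.1 CPM in control and 57.2, 82.6 and 69.5 CPM in CYT libraries, with CYT below control. It was not called (log2 fold change -0.79 ± 0.29 (SE), edgeR adjusted p = 0.0688), and was called lower with the replicate block (adjusted p = 0.0259) and without CYT 2 (adjusted p = 0.0232), in a range of 0.0232 to 0.226 over alternatives. Of the mitochondrial exchange factors for HSPA9, GRPEL1 was at 0.72 ± 0.28 (SE) and was not called (edgeR adjusted p = 0.0828, with the replicate block called higher at 0.0438), whereas GRPEL2 fell (log2 fold change -1.59 ± 0.39 (SE), adjusted p = 0.0141). HSCB, the mitochondrial J protein of iron-sulfur cluster assembly, rose by 1.51 ± 0.30 (SE) on the log2 scale (adjusted p = 0.00543). TRAP1, the HSP90 of mitochondria, fell from 224 ± 85.0 to 65.9 ± 22.2 CPM (log2 fold change -1.77 ± 0.39 (SE), adjusted p = 0.00890).

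Neither gene of the mitochondrial chaperonin was called. HSPD1 (HSP60) was at 327, 406 and 382 CPM in control and 181, 589.8 and 227 CPM in CYT libraries, so CYT 2 was above all control libraries and the others below them. This gave a log2 fold change of -0.16 ± 0.43 (SE) (edgeR adjusted p = 0.811), and without CYT 2 -0.86, which was called lower (adjusted p = 0.0290). HSPE1 (HSP10), which is transcribed from the same promoter region in the opposite direction, was at 89.3, 168 and 146 CPM in control and 99.4, 142 and 125 CPM in CYT libraries (log2 fold change -0.14 ± 0.32 (SE), adjusted p = 0.773).

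HSPE1-MOB4, a readthrough gene that shares exons with HSPE1, was called lower (log2 fold change -1.68 ± 0.43 (SE), edgeR adjusted p = 0.0167), and how reads were divided between it, HSPE1 and MOB4 is uncertain. Its call was lost without control 2, CYT 1 or CYT 3 (adjusted p of 0.0532 to 0.0608). Of the 10 mitochondrial members, all tested, edgeR called 0 higher and 3 lower (30.0%, beside 28.6% of all tested genes), and their median log2 fold change was -0.26. Without CYT 2 the median was -0.56, and 0 were called higher and 5 lower (50%, beside 35.5% of all tested genes in that fit). At an unadjusted p under 0.05 and with DESeq2, 0 were higher and 4 lower, and of all 15565 genes DESeq2 called 2928 higher and 2354 lower. With the replicate block 4 were called lower, beside 39.9% of all tested genes called. DNAJC28 had the highest value of the list, 1.60 ± 0.77 (SE), at under 3 CPM in every library, and was not called. Without CYT 2 it was 0.86.

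The DNAJC family, in which the J domain is joined to many different proteins, had 27 tested members, of which edgeR called 4 lower and 0 higher. The 14.8% called, all lower, stood beside 28.6% of all tested genes called (12.9% lower and 15.7% higher). At an unadjusted p under 0.05, 6 were lower and 0 higher. DESeq2 called 5 lower and 0 higher, beside 2354 lower and 2928 higher of 15565 genes. The replicate block, which called 39.9% of all tested genes, called 5 lower and 3 higher, the latter being DNAJC8, DNAJC25 and DNAJC25-GNG10. DNAJC25-GNG10 is a readthrough gene that overlaps DNAJC25 on the same strand, so reads of these rows may be shared, and its log2 fold change was 0.80 ± 0.57 (SE) (edgeR adjusted p = 0.321, with the replicate block 0.0384). Without CYT 2 it was 0.03 (adjusted p = 0.971).

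DNAJC5 (CSP), a lipid-anchored chaperone of secretory vesicles that also drives release of misfolded proteins, was at 457, 356 and 297 CPM in control and 129, 62.4 and 136 CPM in CYT libraries. All CYT values lay below control (log2 fold change -1.76 ± 0.36 (SE), edgeR adjusted p = 0.00676), and the call was kept under all 15 alternatives. Of the 5 members listed as endocytic and synaptic, DNAJC6 (auxilin) and DNAJC13 were not called, with log2 fold changes of -0.15 ± 0.32 (SE) and -0.14 ± 0.43 (SE) whose signs turned under upper-quartile normalization (DNAJC13 was at -0.67 without CYT 2), and DNAJC5B and DNAJC5G did not pass the filter.

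DNAJC14, an ER membrane J protein that helps receptors reach the surface, was at 36.3, 27.9 and 43.5 CPM in control and 18.9, 5.05 and 3.26 CPM in CYT libraries. CYT 1 was several-fold above the other CYT libraries yet below every control library (log2 fold change -1.98 ± 0.60 (SE), edgeR adjusted p = 0.0332). Without CYT 1 the change was -3.11 (adjusted p = 0.00350). The call was kept under 10 of 15 alternatives and lost without control 1, control 3, CYT 2, CYT 3 or both libraries numbered 2 (adjusted p of up to 0.0987). Its locus overlaps AC023055.1 on the same strand (1736 counts) and ORMDL2 on the other (3037 counts). AC023055.1 was over 10-fold lower in control 3 and CYT 1 than in every other library, and these hold the highest DNAJC14 value of their groups. How reads were divided between the rows of DNAJC14 and AC023055.1 was not tested. DNAJC12, a cochaperone for the aromatic amino acid hydroxylases, was at 7.50, 8.52 and 7.84 CPM in control and 2.61, 3.92 and 1.83 CPM in CYT libraries (log2 fold change -1.51 ± 0.39 (SE), adjusted p = 0.0182). This call was kept under 11 of 15 alternatives and lost without control 2, control 3, CYT 1 or CYT 3 (adjusted p of 0.0533 to 0.0620).

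Of the 4 members listed as linked to the spliceosome or to nascent chains, edgeR called 0 higher and 0 lower, beside 28.6% of all tested genes called. At an unadjusted p under 0.05, 0 were higher and 1 lower, and DESeq2 called 0. With the replicate block, which called 39.9% of all tested genes, 1 was called higher. DNAJC8, which is found in spliceosomal complexes, was at 45.6, 109 and 170.2 CPM in control and 194, 194 and 199.6 CPM in CYT libraries. The control libraries spread widely and the CYT libraries lay together above them (log2 fold change 0.86 ± 0.43 (SE), edgeR adjusted p = 0.162, with the replicate block 0.0447). DNAJC17, also bound to splicing factors, was at -0.98 ± 0.41 (SE) (adjusted p = 0.0989), with CYT below control.

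**Figure D4:**
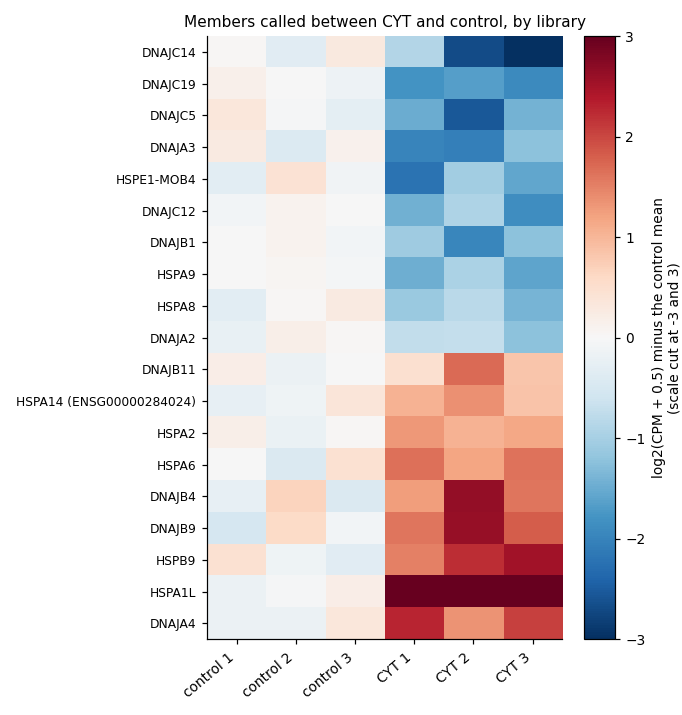
Heat map of the 19 called members in the 6 libraries, as log2(CPM + 0.5) minus the mean of the 3 control libraries, with colours cut at -3 and 3. Each gene lies on the same side of its control mean in all 3 CYT libraries, with 10 genes blue (lower) and 9 red (higher).

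The partners of these chaperones were taken from lists of 58 helper genes, of which 55 were tested, 5 called higher and 6 lower, with a median log2 fold change of -0.34. The 20.0% called stood beside 28.6% of all tested genes, where 15.7% were higher and 12.9% lower. Without CYT 2, 5 were called higher and 10 lower (27.3%, beside 35.5% of all tested genes in that fit). HSF1, the main activator of the heat shock response, was at 161, 93.1 and 144 CPM in control and 92.0, 40.2 and 79.5 CPM in CYT libraries, with CYT below control but not called (log2 fold change -0.91 ± 0.38 (SE), edgeR adjusted p = 0.0996, with the replicate block 0.0129). Without CYT 2 the change of HSF1 was -0.62 (adjusted p = 0.122). HSBP1, which binds the trimerization domain of HSF1 and limits its activity, rose from 234 ± 43.1 to 573 ± 168 CPM (log2 fold change 1.29 ± 0.31 (SE), adjusted p = 0.0135). Of 5 heat shock factor genes and binders, 4 were tested and HSBP1 was the call (25%, beside 28.6% of all tested genes). HSF2, another factor of this family, was at 18.7 ± 6.39 CPM in control and 40.7 ± 18.0 CPM in CYT libraries (mean ± SD, n = 3). Its CYT values lay above control without overlap, and it was not called (log2 fold change 1.12 ± 0.40 (SE), edgeR adjusted p = 0.0612, range 0.00711 to 0.193 over the alternatives), but was called higher with the replicate block (adjusted p = 0.00711). Without CYT 2 its change was 0.70.

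Among 20 HSP70 helpers, 3 were called higher and 2 lower (25%, beside 28.6% of all tested genes). Without CYT 2, 3 were called higher and 4 lower (35.0%, beside 35.5% of all tested genes in that fit). HSCB and SDF2 rose as given above, and BAG5, an exchange factor, by 1.13 ± 0.33 (SE) (edgeR adjusted p = 0.0294). BAG3, a heat-inducible exchange factor, was at -0.20 ± 0.38 (SE) and the ubiquitin ligase STUB1 (CHIP) at -0.86 ± 0.35 (SE), and neither was called. Without CYT 2 the value of BAG3 was 0.13.

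Among 17 HSP90 helpers, 1 was called higher and 4 lower (29.4%, beside 28.6% of all tested genes). FKBP5 (FKBP51), a glucocorticoid-induced immunophilin, rose by 1.44 ± 0.35 (SE) (edgeR adjusted p = 0.0130). PTGES3 (p23), which holds HSP90 in its closed state, fell from 266 ± 27.7 to 87.7 ± 0.616 CPM (log2 fold change -1.60 ± 0.27 (SE), adjusted p = 0.00263), and NUDC had a log2 fold change of -1.57 ± 0.40 (SE) (adjusted p = 0.0172) and PPP5C of -1.10 ± 0.36 (SE) (adjusted p = 0.0436). The kinase loader CDC37 and the HSP70-HSP90 bridge STIP1 (HOP) were not called, at 0.61 ± 0.38 (SE) and -0.49 ± 0.37 (SE). Without CYT 2 they were at 0.86 and -0.28.

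All 14 genes of the cytosolic chaperonin TRiC and prefoldin, which fold actin and tubulin, were tested. Of them edgeR called 0, beside 28.6% of all tested genes (median log2 fold change -0.40). Without CYT 2 the median was -0.50, and 0 were called higher and 2 lower (14.3%, beside 35.5% of all tested genes in that fit). At an unadjusted p under 0.05, 1 was higher and 3 lower, and DESeq2 called 0 higher and 1 lower. The replicate block called 1 higher and 2 lower, beside 39.9% of all tested genes. CCT4 had the lowest value of them, -0.93 ± 0.32 (SE) (edgeR adjusted p = 0.0567). It was called lower under 5 of 15 alternatives, among them the replicate block (adjusted p = 0.0211) and without CYT 2 (-1.17, adjusted p = 0.0176), in a range of 0.0176 to 0.177. Of the 11 helper calls, those of HSCB, PTGES3 and TRAP1 were kept under all 15 alternatives. Those of SDF2L1 and PPP5C were each kept under 7, and both were lost under upper-quartile normalization, the filter at 5 CPM and protein-coding genes only. BAG5 kept its call under 9 and SDF2 under 10, and HSBP1 was kept under 14. FKBP5, NUDC and GRPEL2 kept theirs under 13. Leaving out the first control library ended all of these but that of GRPEL2, which was lost without control 2 or CYT 3. The crystallin genes CRYAA and CRYAB, small heat shock proteins with other names, did not pass the filter.

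**Figure D5:**
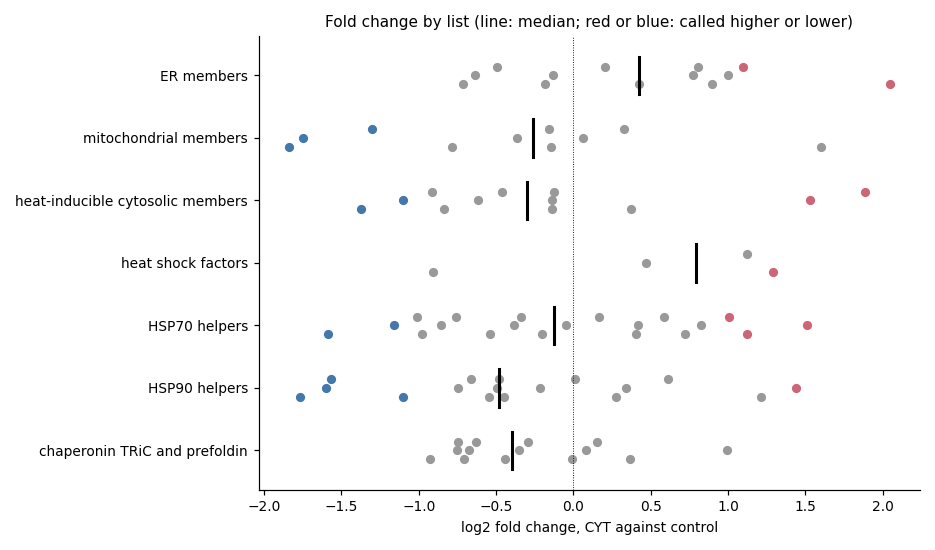
Log2 fold change of CYT against control for each tested gene of 3 lists of members and 4 lists of helper genes, with 1 point a gene and the list's median as a black line. Red and blue points were called higher and lower, and the medians run from -0.48 for HSP90 helpers to 0.80 for heat shock factors.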

How the data were processed

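Poly(A) RNA of 3 control and 3 CYT libraries was sequenced, and samples were grouped by their titles. According to the methods, ribosomal reads were removed and the rest aligned with Hisat2. The authors deposited raw counts per gene and FPKM values, for which the methods name Stringtie (FPKM) and an edge software (quantification of genes). The program that counted the reads, the annotation and the strand setting are not given in the sources used here. The submitters' processing notes name build hg38 and FastQC 0.12.1. Member loci equalled those of GENCODE 29 for 72 of 76 genes. Titles name the cells MDA-MB-231-DR and the cell line label MDA-MB-231.

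The counts went into edgeR 4.0.16 under R 4.3.3 (TMM, filterByExpr with a minimum count of 10, quasi-likelihood test of CYT against control, no replicate block), with Benjamini-Hochberg adjustment over 15572 genes and a threshold of 0.05. Standard errors came from the fold change and the F statistic. The biological coefficient of variation was 37.5%. The members and gene lists were chosen with earlier results of these data known. Genes were named if they were HSPA5, HSPA1A, DNAJB1, HSPA1B or HSPA6, if called at a mean of at least 5 CPM, or if among the 2 of their family with the highest mean FPKM. Of the helper genes, HSF1, HYOU1, SIL1 and up to 5 rises and 5 falls were named by rule. Other names were chosen after their values were seen. Per-length levels used GENCODE 29 exons, and promoters came from RefSeq (GRCh38.p14).

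Replicate pairs of a group differed by 25.0 or more in chi-square per gene, far above sampling noise. Deviations from the group means correlated between same-numbered libraries at 0.188, 0.458 and 0.124. Control 1 with CYT 3 (0.303) and control 3 with CYT 1 (0.201) correlated more than the libraries numbered 1 or those numbered 3. Pairing by number is thus clear only for the libraries numbered 2. The main test took no pairs, and calls with the replicate block rest on this uncertain pairing. Alternatives were the replicate block, DESeq2 1.42.0, scaling by upper quartiles, a filter at a mean of 5 CPM or none, protein-coding genes only, limma 3.58.1 on log2(FPKM + 1) or log2(FPKM + 0.1), a log2 fold change over 1, leaving out each library and, added after seeing the data, leaving out both libraries numbered 2.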

Additional observations from a re-analysis of the deposited data

How the results depend on the processing

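Members called higher (9) numbered 16 with the replicate block and 6 to 10 when 1 library was left out, and members called lower (10) numbered 16 without both libraries numbered 2 and 5 to 14 when 1 library was left out. Helper genes called higher (5) numbered 9 with DESeq2, 9 with upper-quartile normalization, 3 with no filter, 10 with the replicate block, 9 without both libraries numbered 2 and 1 to 6 when 1 library was left out. Helper genes called lower (6) numbered 11 with the replicate block, 14 without both libraries numbered 2, 4 with upper-quartile normalization and 3 to 10 when 1 library was left out. All genes called (4451) numbered 2853 when a mean of 5 CPM was asked for, a setting that tests fewer genes, and 2731 to 5523 when 1 library was left out. For the other shifts the cause was not tested. With upper quartiles the median log2 fold change of all tested genes moved from 0.0064 to 0.155.

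The sign of the log2 fold change turned under at least 1 alternative for 23 of the 48 tested members and 10 of the 44 tested helper genes that were not called. Named ones follow. HSPA1A was at 0.0223 under upper-quartile normalization, 0.82 with the replicate block, 0.39 and 1.05 by limma on log2(FPKM + 1) and log2(FPKM + 0.1), and from -0.69 to 0.51 when 1 library was left out. HSPA1B was at 0.0146 and HSP90AA1 at 0.0210 under upper-quartile normalization, and they ran from -0.256 to 0.0799 and from -0.61 to 0.139 when 1 library was left out. HSPB11 was at 0.0977 under upper-quartile normalization, 0.0578 with the filter at 5 CPM, 0.00922 and 0.0171 by the limma fits, 0.0297 with protein-coding genes only, 0.335 without both libraries numbered 2 and from -0.288 to 0.176 when 1 library was left out. HSPD1 ran from -0.86 to 0.137 and HSPE1 from -0.37 to 0.0863 when 1 library was left out. HSPA13 ran from -0.185 to 0.546, HSPH1 from -0.0767 to 0.549 and DNAJC10 from -0.27 to 0.79 when 1 library was left out. HSPA14 (longer locus) was at -0.0374 with no filter, -0.0431 without both libraries numbered 2 and from -0.270 to 0.280 when 1 library was left out. DNAJB6, DNAJC6 and DNAJC13 were at 0.00193, 3.58e-04 and 0.00695 under upper-quartile normalization. DNAJB6 was at 0.0250 and BAG3 at 0.0408 without both libraries numbered 2, and DNAJB6, DNAJC13 and BAG3 ran from -0.332 to 0.0410, from -0.665 to 0.234 and from -0.485 to 0.133 when 1 library was left out. The replicate block ended no call of the 19 members, and the 10 member calls it added are given beside the results. With 3 libraries a group, and members under 1 CPM resting on few counts, smaller changes could not be called.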

Other observations

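Rows of the table with matching symbols that are not protein coding numbered 100, of which 84 are processed pseudogenes. They took 0.00332% to 0.00594% of all counts in a library. Of the 13 that were tested, 1 was called higher and 1 lower in CYT. The lower one was DNAJC19P9, described with DNAJC19. The higher one was DNAJC3-DT, a long noncoding RNA divergent from DNAJC3, with 3, 8 and 0 counts in control and 20, 34 and 18 in CYT libraries, a log2 fold change of 2.98 (edgeR adjusted p = 0.0191). No control library reached the minimum of the count filter, so it was tested only through its CYT values. DNAJC3 itself was not called. HSPA7, an unprocessed pseudogene close to HSPA6, had 4, 3 and 19 counts in control and 17, 16 and 25 in CYT libraries, and its log2 fold change of 1.32 was not called (edgeR adjusted p = 0.222), while HSPA6 was called higher.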
